A study of Mus musculus with 10 samples.

Results

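The amino acid transporter families described here are the protein-coding genes whose symbols belong to the solute carrier families Slc1, Slc3, Slc6, Slc7, Slc36, Slc38 and Slc43. The rule took them by symbol alone, and it found 63 genes among the 55385 genes listed in the files, of which 21897 are protein-coding. They were measured by RNA sequencing in endothelial cells from mouse liver, in 5 libraries titled Alk1-HEC-KO with the genotype KO and 5 libraries titled Control with the genotype WT. Alk1 is another name for Acvrl1, the gene of an endothelial receptor for the circulating ligands BMP9 and BMP10. Cells other than hepatocytes were taken from a density gradient, and endothelial cells were captured from them on magnetic beads against CD146. The sources used here do not give the Cre driver, the deleted exons, the age of the mice, the batches or any pooling of animals. Nothing in the labels ties a library to a separate animal, and a p-value therefore reflects only the spread of these samples, part of which may be technical.

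Most amino acids cross the plasma membrane on carriers, and each carrier has its own substrates and driving force. Slc7 light chains exchange one amino acid for another and need a heavy chain of the Slc3 family to reach the membrane, whereas the CAT-type members of Slc7 carry arginine and lysine without one. Slc1, Slc6 and Slc38 members draw on the sodium gradient, some Slc36 members couple amino acids to protons, often at lysosomes, and Slc43 members are facilitative. Liver sinusoidal endothelial cells take up and degrade large amounts of circulating protein, and the arginine that endothelial cells import is the substrate of nitric oxide synthase.

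Library depth was even, from 23489494 to 23602771 estimated counts, and levels are given below as CPM (counts scaled to library size and TMM factor) or, between genes, as the deposited TPM, which accounts for transcript length. Acvrl1 itself was at 124, 125, 136, 114 and 135 CPM in Controls 1 to 5. The knockout-labelled libraries 1 to 5 held 239, 246, 250, 258 and 245 CPM of it. Every library labelled as a knockout thus held more of the targeted gene than any control, 1.95-fold more on average (edgeR adjusted p = 1.7e-07), against its label, and each direction below is that of the knockout-labelled libraries against the controls. Of the cell type markers, the 10 general endothelial genes summed to 11021 to 12673 CPM in controls and 11510 to 12244 CPM in knockout-labelled libraries, but 5 of them rose and 2 fell. Mcam, which encodes the capture antigen CD146, rose from 330 ± 44.4 to 541 ± 35.8 CPM (SD, n = 5 per group; edgeR adjusted p = 0.00011), and its part in the transporter values was not tested. The 8 sinusoidal endothelial genes summed to 22708 to 26319 and 15796 to 17538 CPM, and 7 of them fell. The 7 bile duct genes summed to 186 to 266 and 366 to 625 CPM with 6 higher, and the 12 stellate and fibroblast genes to 171 to 271 and 269 to 376 CPM with 4 higher. Those 4 were Col1a1, Col1a2, Col3a1 and Rgs5, and the other 8, Lrat, Reln and Dcn among them, were not called. The 10 Kupffer cell genes summed to 590 to 1848 and 526 to 1278 CPM, and none of them passed the test. The 17 hepatocyte genes summed to 826 to 2780 and 819 to 1716 CPM, and the highest sums were those of Control 2 (2780 CPM) and Control 4 (2704 CPM). The median log2 fold change of the 17 was -1.10. Cyp2e1 (-3.30), Cyp3a11 (-3.10) and Apoa2 (-2.14) were called lower, and 14 were not called. Alb, the most abundant gene of the list and so the largest part of its sum, did not pass (-0.08). Of smaller lists, 2 of 8 T and NK cell genes fell, 2 of 6 B cell genes rose and no erythroid or platelet gene was called. No gene of the first 6 marker lists was under 1 CPM in every library. What the sinusoidal, bile duct, stellate and Kupffer transcripts contribute to the transporter values was not tested, and in bulk RNA fewer cells of a type and less RNA per cell cannot be told apart.

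Transporter transcripts in these cells were dominated by a few genes. In the controls 14 of the 63 members had a mean of at least 10 TPM, 9 lay between 1 and 10 TPM and 40 were under 1 TPM. Slc43a3, which encodes a facilitative carrier known for moving purine nucleobases, was first with 812 ± 71.1 TPM (SD, n = 5), followed by Slc3a2, the heavy chain 4F2hc or CD98, with 332 ± 25.7 TPM. Next came Slc38a10, an orphan member of the sodium-coupled neutral family, with 162 ± 9.31 TPM. Slc43a2, the system L carrier LAT4, had 105 ± 26 TPM and Slc7a7, the light chain y+LAT1, had 88.8 ± 13.5 TPM, and the spreads of the latter pair overlap. These 5 genes made up 83.5% of the summed member TPM in controls and 80.9% in knockout-labelled libraries, and Slc43a3 alone 45.2% and 41%. The 10 highest members were the same genes in both groups. Summed over all members, the level was 1797 ± 134 TPM in controls and 1608 ± 91.1 TPM in knockout-labelled libraries (SD, n = 5 per group).

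**Figure D1:**
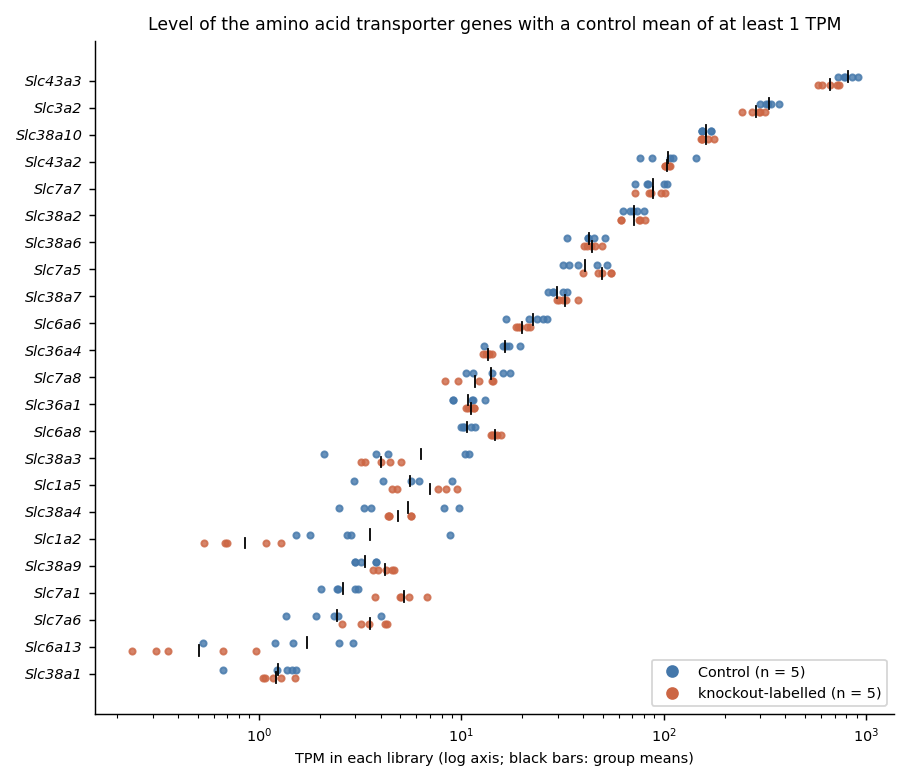
Level of the 23 transporter members with a control mean of at least 1 TPM in each library, in TPM on a log axis, with controls and knockout-labelled libraries as separate points and bars at the group means. Slc43a3 lies highest in both groups, with means of 812 and 660 TPM, and Slc3a2 is next.

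After the filter on low counts 29 of the 63 members were tested, and 10 of them passed at an adjusted p under 0.05: 4 rose and 6 fell. The 4 that rose were the CAT-type genes Slc7a1 and Slc7a4, the neutral carrier gene Slc1a4 and the creatine carrier gene Slc6a8. The 6 that fell were Slc43a3, Slc3a2, Slc6a6, Slc36a4, Slc1a2 and Slc6a13. Slc7a4 and Slc6a13 passed the filter only through the group in which they are high, so these 2 calls add no support. Slc7a4 was below the filter's minimum count in Controls 4 and 5 (0.405 and 0.299 CPM). Slc6a13 was below it in knockout-labelled libraries 3 and 5 (0.296 and 0.376 CPM). The background is high in this comparison, since 19.7% of the 15043 genes tested were called, 10.6% as higher and 9.08% as lower. Of the tested members 34.5% were called, a count over 29 genes that includes Slc7a4 and Slc6a13. In 6 of the 29 the libraries of the groups did not overlap, and the same held for 15.5% of all genes tested. Slc43a3, Slc36a4, Slc6a8, Slc1a2, Slc7a1 and Slc1a4 are those 6. The median log2 fold change of the tested members was -0.09, beside 0.0001 over all genes tested. Of the 10 called differences, 5 were under 0.5 in size on the log2 scale, and only Slc1a2 and Slc6a13 of the 10 reached 1. The split depends on the scaling, as 53.8% of all called genes and 40% of the called members were higher with TMM, and 65.8% and 50% with library size alone. With limma on log2(TPM + 1), 73.3% of all called genes and 50% of the 6 called members were higher. Without Controls 2 and 4 together, 8 members were called and only 3 of them were lower. The 8 include Slc1a1, not tested in the main fit, which the filter, run again, let in through its high group.

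**Figure D2:**
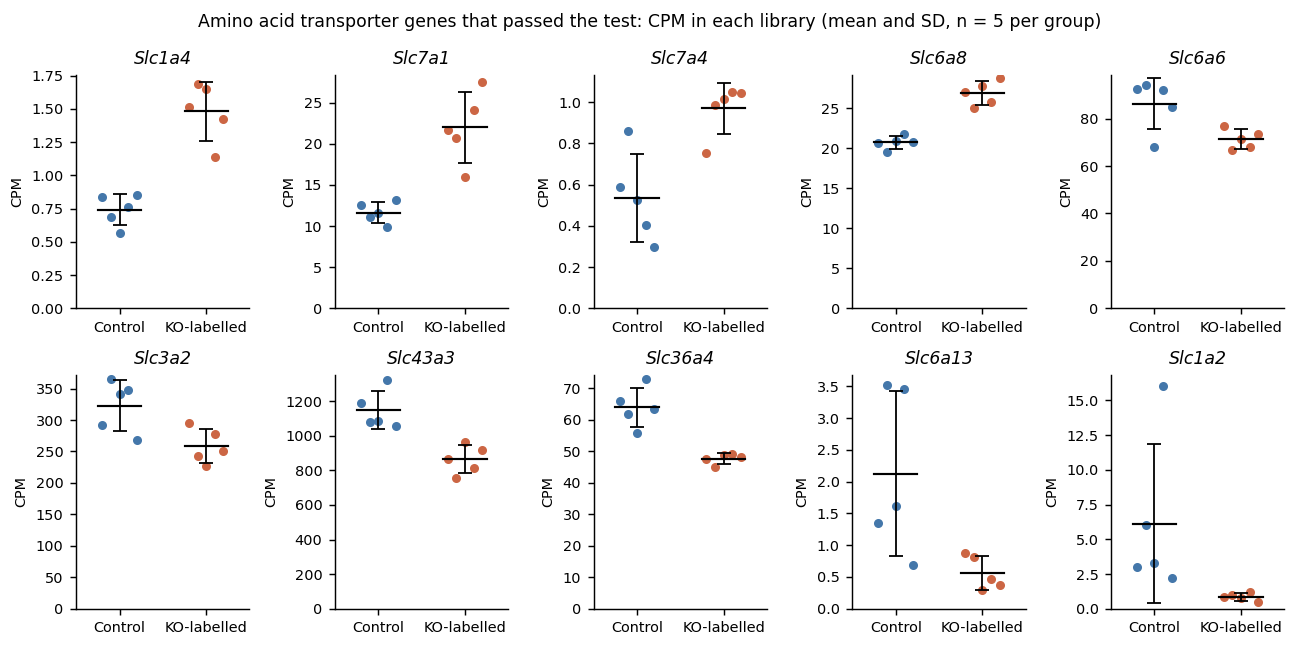
CPM of the 10 called members in each library, 1 panel per gene, with horizontal lines at the group means and error bars for the SD (n = 5 per group), axes from 0. Slc7a1, Slc1a4 and Slc6a8 sit higher in all 5 knockout-labelled libraries than in any control, and Slc43a3, Slc36a4 and Slc1a2 sit lower.

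**Figure D3:**
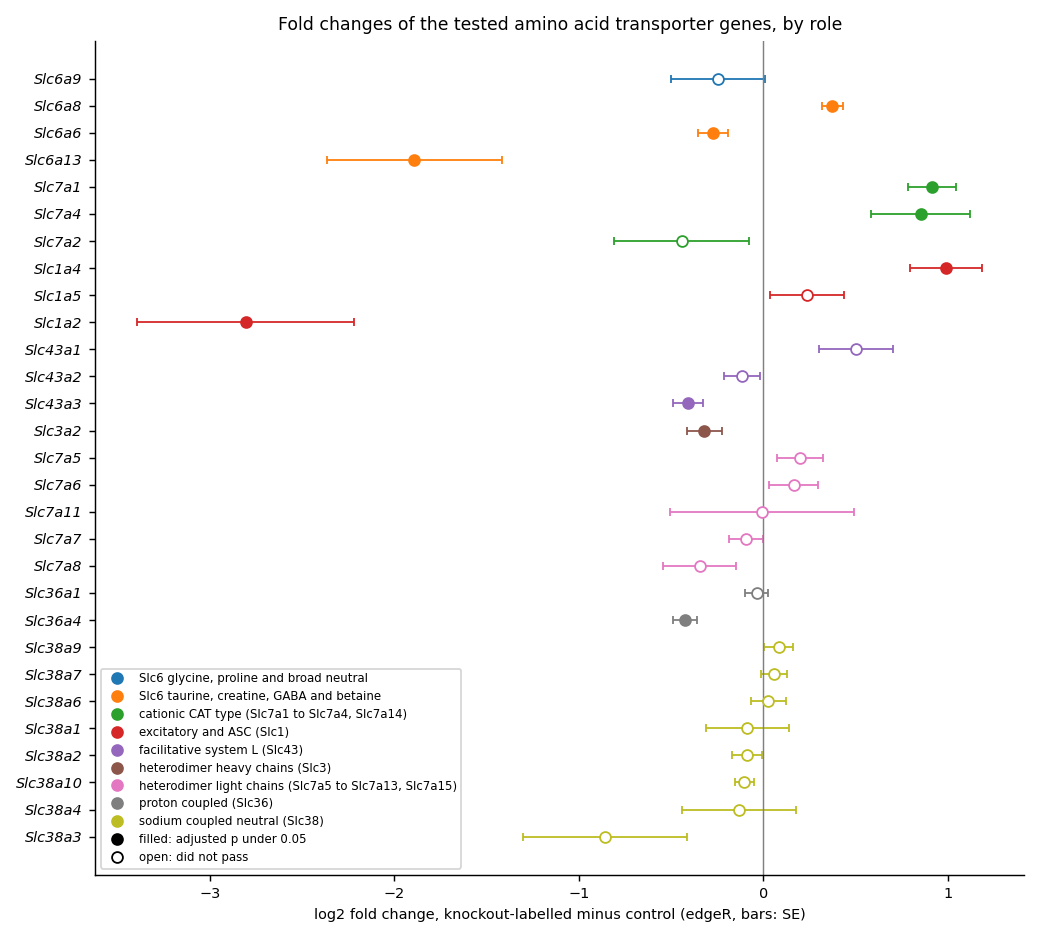
Log2 fold change of each of the 29 tested members, knockout-labelled against control, with bars for the SE, colours for the role and filled points for genes that passed. Values run from -2.81 for Slc1a2 to 0.99 for Slc1a4, and the filled points lie on both sides of 0.

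Among the carriers of cationic amino acids, Slc7a1 showed the clearest rise. Slc7a1 (ENSMUSG00000041313.14, chr5:148327410-148399904, minus strand, GRCm38) encodes CAT1, the main arginine and lysine carrier of many cells. The transcript was at 12.5, 11.1, 11.6, 9.9 and 13.1 CPM in control libraries 1 to 5 and 21.7, 20.7, 15.9, 24.1 and 27.5 CPM in knockout-labelled libraries 1 to 5. Every knockout-labelled library lay above every control. The means were 11.7 ± 1.26 and 22 ± 4.27 CPM (SD, n = 5 per group), a 1.89-fold rise (log2 fold change 0.92 ± 0.13 SE, edgeR adjusted p = 0.00034). The call held in all 23 alternatives run. Its promoter was searched in the RefSeq window on GRCm38.p6, from 250 bases before the start to 50 after, and the 90 bases before the start (chr5:148399905-148399994, minus strand) are printed because they hold GGCGCC, the GC-rich letters that SMAD proteins of the BMP pathway are known to bind, in capitals.
Slc7a1: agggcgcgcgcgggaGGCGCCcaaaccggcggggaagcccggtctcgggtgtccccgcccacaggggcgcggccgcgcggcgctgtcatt
GGCGCC occurs in 11.9% of the 32851 RefSeq windows of this length, and in 12 of the 66 windows of members. These 12 belong to 11 of the 45 members that have a window, Slc36a4 among them, which fell. A match is a description of letters, not of a bound site.

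Slc7a4 (ENSMUSG00000022756.17, chr16:17572018-17583214, minus strand), an orphan relative of the CAT carriers, was scarce. It was at 0.589, 0.858, 0.523, 0.405 and 0.299 CPM in control libraries 1 to 5 and 0.755, 0.986, 1.02, 1.05 and 1.05 CPM in knockout-labelled libraries 1 to 5. The groups overlap, since Control 2 lay above knockout-labelled library 1, which was the lowest of its group. It rose 1.82-fold (log2 fold change 0.85 ± 0.27 SE, edgeR adjusted p = 0.043) on 178 counts in all. It passed the filter on low counts through the knockout-labelled libraries, where it is high. The call was lost in 15 of the 22 alternatives that tested it, with adjusted p from 0.061 (DESeq2) to 0.24, and each fit that left out Control 1, 3, 4 or 5 or one of knockout-labelled libraries 2 to 5 lost it (0.062 to 0.1). Slc7a2, the CAT2 gene abundant in hepatocytes, did not pass (log2 fold change -0.44 ± 0.37 SE, edgeR adjusted p = 0.45). Summed over the CAT-type members, the level was 3.69 ± 0.564 TPM in controls and 6.53 ± 1.12 TPM in knockout-labelled libraries (SD, n = 5 per group), most of it Slc7a1 with 2.6 and 5.23 TPM.

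The Slc1 family, carriers of glutamate and of small neutral amino acids, held a member that rose and a member that fell. Slc1a4 (ENSMUSG00000020142.12, chr11:20302180-20332713, minus strand) encodes ASCT1, a sodium-dependent exchanger of alanine, serine, cysteine and threonine. It stood at 0.841, 0.687, 0.567, 0.765 and 0.854 CPM in control libraries 1 to 5 and 1.51, 1.68, 1.65, 1.14 and 1.42 CPM in knockout-labelled libraries 1 to 5. All knockout-labelled libraries were above all controls, at a low level that rests on 263 counts in all. The rise was 1.99-fold (log2 fold change 0.99 ± 0.20 SE, edgeR adjusted p = 0.0033), and the call held in the 23 alternatives. It passed the stricter filter through the knockout-labelled libraries alone, so that fit adds no support. The last 90 bases before its start and the first 4 after it (chr11:20332710-20332803, minus strand) are shown beside the 90 bases before the start of Slc7a11 (chr3:50443614-50443703, minus strand), the cystine carrier gene. Both hold the amino acid response letters TGATGNAAN, read on either strand and set in capitals, which the transcription factor ATF4 is known to bind when amino acids are short.
Slc1a4: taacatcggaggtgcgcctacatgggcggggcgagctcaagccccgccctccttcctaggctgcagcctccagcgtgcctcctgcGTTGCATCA
Slc7a11: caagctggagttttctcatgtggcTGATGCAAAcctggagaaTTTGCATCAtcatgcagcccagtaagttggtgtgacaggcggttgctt
These letters occur in 3.95% of all windows and in 5 of the 66 member windows, which belong to 4 members, the others being Slc6a21 and Slc7a7. Of the 4, Slc1a4 rose, Slc7a7 and Slc7a11 did not pass, and Slc6a21 had no counts.

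Slc1a2 (ENSMUSG00000005089.15, chr2:102658659-102790784, plus strand) encodes the glutamate carrier GLT-1, which in liver is known from the hepatocytes around the central vein. Its values were 3.03, 6.01, 3.27, 16.1 and 2.25 CPM in control libraries 1 to 5 and 0.881, 0.986, 0.804, 1.22 and 0.46 CPM in knockout-labelled libraries 1 to 5. The groups did not overlap, and Control 4 stood far above the other controls. The fall was 7.04-fold (log2 fold change -2.81 ± 0.59 SE, edgeR adjusted p = 0.0078). Without Control 4 it was -2.06 (edgeR adjusted p = 0.0011), without Controls 2 and 4 it was -1.71 (0.0022), and with the mean log2 CPM of the 17 hepatocyte genes as a covariate -1.60 (0.031). On the log2(TPM + 1) scale, which understates low genes, limma gave -1.12. A short stretch of a RefSeq window (chr2:102706220-102706249, plus strand) is printed for the TCF/LEF letters CTTTGAT, here as their reverse complement in capitals. The Wnt pathway that acts through these factors is known to set the pericentral genes of liver. This window belongs to a start inside the gene, not to the gene start given above, and which start was used in these libraries was not analysed.
Slc1a2: agaagagggacATCAAAGgccccaaatggt
CTTTGAT occurs in 3.73% of all windows and in 5 of the 66 member windows, 1 each for 5 members, of which Slc1a2 fell, Slc7a1 rose, Slc38a10 and Slc38a9 did not pass and Slc6a16 was not tested. Slc1a5, the glutamine carrier gene ASCT2, was at 7.34 and 8.65 CPM and did not pass (log2 fold change 0.24 ± 0.20 SE, edgeR adjusted p = 0.46).

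Among the heteromeric exchangers, the shared heavy chain fell slightly, and none of its 5 tested light chains passed. Slc3a2 (ENSMUSG00000010095.13, chr19:8706882-8723369, minus strand) was at 293, 365, 342, 348 and 268 CPM in control libraries 1 to 5 and 295, 243, 228, 278 and 250 CPM in knockout-labelled libraries 1 to 5. The groups overlap, because knockout-labelled library 1 lay above Controls 1 and 5. The means were 323 ± 40.9 and 259 ± 27.2 CPM (SD, n = 5 per group), with a log2 fold change of -0.32 ± 0.09 SE (edgeR adjusted p = 0.032). The call was lost in 12 of the 23 alternatives, and each fit that left out Control 2, 3 or 4 or knockout-labelled library 2, 3 or 5 gave an adjusted p between 0.06 and 0.078. With the hepatocyte covariate the log2 fold change was -0.15 (edgeR adjusted p = 0.3), and without Controls 2 and 4 it was -0.22 (0.2).

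The light chain Slc7a7 (chr14:54369442-54417780, minus strand), which exports cationic for neutral amino acids, was at 116, 118, 103, 96.4 and 97.4 CPM in control libraries 1 to 5 and 110, 94.8, 116, 85.3 and 91 CPM in knockout-labelled libraries 1 to 5. The groups overlap widely, and the gene did not pass (log2 fold change -0.10 ± 0.09 SE, edgeR adjusted p = 0.52). Its exons overlap those of Oxa1l on the opposite strand, at 51.1 CPM, and without a stated strand setting the reads of the pair cannot be told apart. Slc7a5, the large neutral amino acid light chain LAT1, was at 87.2 ± 15.3 and 99.9 ± 12.6 CPM (SD, n = 5 per group), a log2 fold change of 0.20 ± 0.12 SE that did not pass (edgeR adjusted p = 0.31). Slc7a8, the light chain LAT2, was at 35.5 ± 8 and 27.9 ± 6.87 CPM (log2 fold change -0.35 ± 0.20 SE, edgeR adjusted p = 0.27). Slc7a6, the light chain y+LAT2, was at 4.15 and 4.65 CPM (log2 fold change 0.16 ± 0.13 SE, edgeR adjusted p = 0.43). Slc7a11, the cystine and glutamate exchanger xCT, was scarce, with means of 0.653 ± 0.246 and 0.649 ± 0.542 CPM and its highest library knockout-labelled 1. Summed in TPM, heavy chains were at 332 ± 25.8 and 287 ± 27.9 and light chains at 147 ± 22 and 154 ± 8.11 in controls and knockout-labelled libraries (SD, n = 5 per group).

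The facilitative Slc43 family changed through its most abundant member. Slc43a3 (ENSMUSG00000027074.14, chr2:84936579-84958509, plus strand) was at 1188, 1082, 1088, 1324 and 1057 CPM in control libraries 1 to 5 and 868, 756, 965, 815 and 918 CPM in knockout-labelled libraries 1 to 5. Each knockout-labelled library was below the lowest control. The means were 1148 ± 110 and 865 ± 82.3 CPM (SD, n = 5 per group), a 1.33-fold fall (log2 fold change -0.41 ± 0.08 SE, edgeR adjusted p = 0.0035). The call held in the 23 alternatives, with log2 fold changes from -0.46 to -0.30. Slc43a2 (chr11:75531694-75577575, plus strand) stood at 515, 419, 332, 395 and 434 CPM in control libraries 1 to 5 and 404, 379, 396, 401 and 350 CPM in knockout-labelled libraries 1 to 5. The controls of Slc43a2 spread on both sides of the knockout-labelled libraries, and it did not pass (log2 fold change -0.12 ± 0.10 SE, edgeR adjusted p = 0.44; 0.02 with limma on log2 TPM). An exon of Slc43a2 overlaps the antisense gene Gm45606, at 21.4 CPM. Slc43a1, the system L carrier LAT3, was at 1.08 ± 0.174 and 1.53 ± 0.304 CPM (log2 fold change 0.50 ± 0.20 SE, edgeR adjusted p = 0.1).

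None of the 8 tested Slc38 genes, of 11 in the family of sodium-coupled neutral amino acid carriers, passed the test. Slc38a10 (chr11:120103960-120151346, minus strand) was at 342, 328, 352, 368 and 362 CPM in control libraries 1 to 5 and 314, 312, 345, 319 and 341 CPM in knockout-labelled libraries 1 to 5. The ranges overlap, with 3 of the knockout-labelled libraries below the lowest control, and the log2 fold change was -0.10 ± 0.05 SE (edgeR adjusted p = 0.19). Slc38a2, the system A carrier SNAT2 that is known to follow amino acid supply, was at 208 ± 11.6 and 196 ± 24.7 CPM (SD, n = 5 per group; edgeR adjusted p = 0.5). Slc38a6 was at 86.5 and 88 CPM and Slc38a7, a lysosomal glutamine carrier, at 51.7 and 53.9 CPM, with log2 fold changes of 0.03 and 0.06. Slc38a9, the lysosomal arginine sensor of mTORC1, was at 14.3 and 15.1 CPM (log2 fold change 0.08 ± 0.08 SE, edgeR adjusted p = 0.51). The summed Slc38 level was 322 ± 20.3 TPM in controls and 324 ± 17.7 TPM in knockout-labelled libraries (SD, n = 5 per group).

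Of the Slc36 genes, 2 of 4 were tested and 1 fell. Slc36a4 (ENSMUSG00000043885.14, chr9:15709738-15743361, plus strand) encodes PAT4, a carrier of proline and tryptophan. It was at 65.9, 61.7, 55.8, 72.8 and 63.4 CPM in control libraries 1 to 5 and 47.5, 44.8, 48.7, 49.1 and 48.1 CPM in knockout-labelled libraries 1 to 5. The knockout-labelled libraries lay close together and below every control. The means of 63.9 ± 6.2 and 47.6 ± 1.68 CPM (SD, n = 5 per group) gave a log2 fold change of -0.42 ± 0.07 SE (edgeR adjusted p = 0.0006). The call was lost only with limma on log2 TPM (adjusted p = 0.092). Slc36a1, the lysosomal carrier PAT1, was at 35 and 34.1 CPM (log2 fold change -0.04 ± 0.06 SE, edgeR adjusted p = 0.74).

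Of the 21 Slc6 genes, 4 were tested and 3 were called. Slc6a8 (ENSMUSG00000019558.14, chrX:73673150-73682502, plus strand) encodes the creatine carrier. The transcript was at 20.6, 19.5, 20.9, 21.8 and 20.8 CPM in control libraries 1 to 5 and 27.1, 25, 27.7, 25.8 and 28.7 CPM in knockout-labelled libraries 1 to 5. The groups were tight and did not overlap, and the rise was 1.3-fold (log2 fold change 0.37 ± 0.06 SE, edgeR adjusted p = 0.00062), and the call held in the 23 alternatives. Slc6a6 (ENSMUSG00000030096.8, chr6:91684053-91759066, plus strand) encodes the taurine carrier. It was at 92.2, 94.1, 68, 92.1 and 84.8 CPM in control libraries 1 to 5 and 77, 66.9, 71.4, 68.2 and 73.7 CPM in knockout-labelled libraries 1 to 5. Control 3 lay within the knockout-labelled range, and the other controls above it. The log2 fold change was -0.27 ± 0.08 SE (edgeR adjusted p = 0.036), and the call was lost in 15 of the 23 alternatives (adjusted p from 0.053 to 0.37), including each fit that left out Control 1, 2, 4 or 5 or knockout-labelled library 2, 3 or 4. Slc6a9, the glycine carrier GlyT1, was at 1.32 and 1.11 CPM and did not pass (edgeR adjusted p = 0.56).

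Slc6a13 (ENSMUSG00000030108.14, chr6:121300227-121337733, plus strand) encodes GAT2, a carrier of GABA and taurine known in hepatocytes. It was at 1.35, 3.52, 1.61, 3.46 and 0.683 CPM in control libraries 1 to 5 and 0.881, 0.822, 0.296, 0.463 and 0.376 CPM in knockout-labelled libraries 1 to 5. Controls 2 and 4 were the highest, and Control 5 lay within the knockout-labelled range. The fall was 3.74-fold (log2 fold change -1.89 ± 0.47 SE, edgeR adjusted p = 0.015). With the hepatocyte covariate the log2 fold change was -0.73 (edgeR adjusted p = 0.058), and without Controls 2 and 4 it was -1.09 (0.12). Limma gave -0.80 on the log2(TPM + 1) scale. The gene passed the filter on low counts through the controls, where it is high.

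Several members were highest in the control libraries with the most hepatocyte transcripts. Slc1a2, Slc6a13, Slc38a3, Slc38a4, Slc7a2 and the untested Slc6a12 all had their highest values in Controls 2 and 4, and these 6 were singled out after their values were seen. Slc38a3, the hepatocyte glutamine carrier SNAT3, was at 5.21, 15.5, 6.93, 17.7 and 3.07 CPM in control libraries 1 to 5 and 5.58, 5.75, 4.48, 6.48 and 4.35 CPM in knockout-labelled libraries 1 to 5. Controls 2 and 4 stood apart and the other controls overlapped the knockout-labelled libraries, and the gene did not pass (log2 fold change -0.86 ± 0.45 SE, edgeR adjusted p = 0.22). Slc38a4, a further hepatocyte carrier of the family, was at 5.89, 16.3, 8.68, 15.9 and 5.85 CPM in control libraries 1 to 5 and 10.9, 9, 11.4, 8.62 and 8.11 CPM in knockout-labelled libraries 1 to 5. Its log2 fold change was -0.13 ± 0.31 SE (edgeR adjusted p = 0.82), and 0.50 without Controls 2 and 4. Of these genes, the fall of Slc1a2 was called with the hepatocyte covariate and that of Slc6a13 was not. The 17 genes averaged in that covariate did not move alike, as 3 were called lower and 14 were not called. Cyp2e1 went from 146 to 14.8 CPM and Cyp3a11 from 110 to 12.8 CPM, both highest in Controls 2 and 4, whereas Alb was at 471 and 447 CPM. How much of the Slc1a2 values comes from hepatocyte transcripts was not tested.

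**Figure D4:**
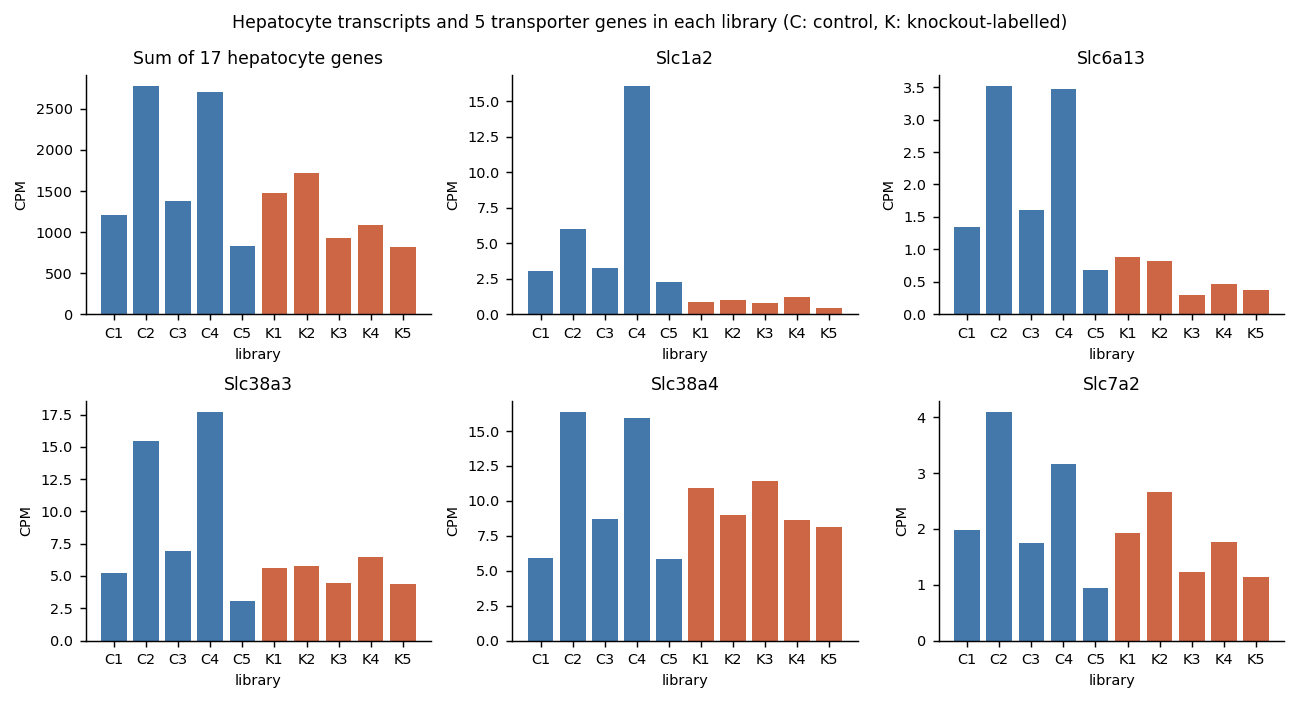
Bars for each library (C, control, and K, knockout-labelled, 1 to 5) of the summed CPM of the 17 hepatocyte genes and of the CPM of Slc1a2, Slc6a13, Slc38a3, Slc38a4 and Slc7a2. Controls 2 and 4, with hepatocyte sums of 2780 and 2704 CPM, carry the highest values of these members.

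The remaining 34 members were under the filter, none with more than 1.22 TPM in any library. 5 of them, Slc6a3, Slc6a18, Slc6a11, Slc7a12 and Slc6a21, had no count in any library. The groups did not overlap for Slc6a12, the betaine carrier BGT1, and Slc1a1, the glutamate carrier EAAC1. The share of such genes among all genes under the filter was not computed, and the 15.5% given above covers tested genes alone. Slc6a12 was at 0.462, 1.63, 0.654, 1.84 and 0.384 CPM in control libraries 1 to 5 and 0.336, 0.329, 0.296, 0.294 and 0.0837 CPM in knockout-labelled libraries 1 to 5. Slc1a1 was at 0.222, 0.173, 0.131, 0.27 and 0.171 CPM in control libraries 1 to 5 and 0.462, 0.619, 0.425, 0.505 and 0.418 CPM in knockout-labelled libraries 1 to 5. Slc6a12 was thus lower and Slc1a1 higher in every knockout-labelled library, on 146 and 80.4 counts in all. Both were under the filter on low counts used here. With no filter the log2 fold change was -1.88 for Slc6a12 (edgeR adjusted p = 0.014) and 1.31 for Slc1a1 (0.033). Both genes were picked for their separation, so these p-values add no support. Some fits with fewer libraries also called them, but there the filter was run again. They passed it through the group in which they are high, so those calls add no support.

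Genes that act with these carriers were read from 5 lists, beside the 19.7% called over all genes. Of 23 genes that respond to amino acid shortage through ATF4, 5 rose, none fell and 18 did not pass, with a median log2 fold change of 0.34. The 23 genes summed to 579 to 724 CPM in controls and 579 to 744 CPM in knockout-labelled libraries, so the sums overlap. The 5 were Nupr1, a stress-induced chromatin protein (1.52 ± 0.24 SE, edgeR adjusted p = 0.00083), Ddit4, an inhibitor of mTORC1 signalling (1.08 ± 0.24 SE, 0.012), Stc2 (0.90 ± 0.23 SE, 0.015), Phgdh, the first enzyme of serine synthesis (0.86 ± 0.27 SE, 0.043), and Gpt2. This count was 1 without Controls 4 and 5 and 2 without Controls 2 and 4. Of the 25 tested genes of mTORC1 amino acid sensing, 2 rose and 1 fell. Castor1, a cytosolic arginine sensor, went from 20.1 to 31.3 CPM (log2 fold change 0.64 ± 0.10 SE, edgeR adjusted p = 0.00049), Rragd rose by 0.95 and Lamtor4 fell by 0.29 on the log2 scale. Without Control 2, Control 4 or knockout-labelled library 1 only 1 gene of the mTORC1 list was called.

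Of 15 enzymes of glutamine and arginine metabolism, 4 rose and 1 fell, and without Control 4 the number called was 3. Odc1, which makes putrescine from ornithine, went from 46.7 ± 5.38 to 86 ± 15.7 CPM (SD, n = 5 per group; log2 fold change 0.88 ± 0.13 SE, edgeR adjusted p = 0.00053). Oat, which converts ornithine towards glutamate, fell from 108 ± 29.4 to 62.6 ± 2.83 CPM (log2 fold change -0.79 ± 0.15 SE, edgeR adjusted p = 0.0041). It was highest in Controls 4 (159 CPM) and 2 (110 CPM), the libraries with the most hepatocyte transcripts. Controls 1, 3 and 5 held 91.4, 95.1 and 87.2 CPM, and the part of hepatocyte transcripts in the fall of Oat was not tested. Gpt2, the mitochondrial alanine aminotransferase, rose by 0.78, Glul, glutamine synthetase, by 0.39 and Glud1, glutamate dehydrogenase, by 0.14 on the log2 scale. Of 13 genes of glutathione and cystine metabolism only Gclc, the catalytic subunit of glutamate-cysteine ligase, was called, and it fell by 0.43 (edgeR adjusted p = 0.0016). Of 14 tested genes of other amino acid and peptide carriers, 2 rose, among them Slc15a4, a lysosomal histidine and peptide carrier, by 0.25 on the log2 scale. In each fit that left out Control 4 or 5 or knockout-labelled library 1, 2, 3 or 5, 1 of this list was called. Glud1, and Gpt2 in the ATF4 list, were named after their values were seen.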

How the data were processed

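The submitters' processing notes name Trim Galore 0.6.4, kallisto 0.4.6 and GRCm38.p6. For each library the authors deposited kallisto's estimated counts per gene and TPM, which divides by transcript length. The sources used here do not give the annotation release, the strand setting or how transcripts were summed to genes. Symbols came from GENCODE M21 by identifier (55144 of 55385 genes).

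Rounded counts went into edgeR 4.0.16 (R 4.3.3): filterByExpr with a minimum count of 10 (15043 genes kept), TMM, the robust quasi-likelihood test on genotype alone and Benjamini-Hochberg adjustment over all genes at 0.05. The method was tested on simulated data. No library pair agreed within sampling noise. Genes under about 1 CPM rest on few counts, so their values are imprecise.

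Members called with a log2 fold change of at least 1 and the 5 highest by TPM were to be given in full, and the other called members were added. From each other list up to 4 called genes of at least 1 CPM were named. One called gene of these lists is not reported here. The members and lists were chosen with earlier results of these data known. Of the members, 45 had a RefSeq promoter window, 6 of the 10 called among them. In all 11 motifs were searched on both strands, and 8 are not described. Alternatives were DESeq2 1.42.0, limma 3.58.1 on counts or on log2(TPM + 1) or log2(TPM + 0.1), a fit without robust estimation, other scalings and filters, a replicate block, a hepatocyte covariate and libraries left out.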

Additional observations from a re-analysis of the deposited data

Results flagged for a closer look

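Single libraries stood apart from the others of their group for 6 of the 90 gene and group combinations examined, and chance alone marks about 1 in 20 such groups. Slc1a2 was at 16.1 CPM in Control 4, with the next control at 6.01 CPM. Slc6a9 was at 2.15 CPM in Control 2, with the next at 1.26 CPM. Knockout-labelled library 1 stood apart for 3 genes: Slc7a4, lowest at 0.755 CPM with the next at 0.986 CPM, Slc7a11, highest at 1.58 CPM with the next at 0.575 CPM, and Gclc, highest at 50.1 CPM with the next at 46.5 CPM. Nupr1, of the amino acid response list, was at 3.01 CPM in Control 3, with the next control at 1.76 CPM.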

How the results depend on the processing

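Of the 10 called members, Slc43a3, Slc6a8, Slc1a2, Slc7a1 and Slc1a4 kept their direction and their call in all 23 alternatives. Slc1a2 and Slc1a4 passed the stricter filter only through the group in which each is high, so for them that fit adds no support. No called member changed direction in an alternative that tested it. The number of members called lower was 6 and became 3 with limma on log2 TPM (either pseudocount), with the hepatocyte covariate and without Controls 2 and 4. Leaving out those 2 libraries was chosen after seeing the data. Over all genes, 1366 were called lower, and this became 664 and 668 with limma on log2(TPM + 1) and log2(TPM + 0.1), 874 with the hepatocyte covariate (with 1061 higher), 866 without Controls 4 and 5 and 787 without Controls 2 and 4. Leaving out 1 library at a time gave 3 to 5 members called higher, 4 to 7 called lower, and 1294 to 1561 and 1021 to 1357 genes in all. The filter was run again in fits with libraries left out. Some of their member counts therefore include Slc1a1, Slc6a12 or Slc1a3, which the main fit did not test. Apart from fits with fewer libraries or genes, the cause was not tested.

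The ATF4 list had 5 called genes, but 3 with the hepatocyte covariate, 1 without Controls 4 and 5 and 2 without Controls 2 and 4. The mTORC1 list had 3, but 1 with limma on TPM, the hepatocyte covariate or without Controls 2 and 4, and 1 to 4 with 1 library left out. The glutamine and arginine list had 5, but 3 with no filter, 2 without Controls 4 and 5, and 3 to 5 with 1 library left out. The list of other carriers had 2, but 1 without Controls 4 and 5 and with the hepatocyte covariate, the replicate block, limma on TPM or the stricter filter, and 1 to 2 with 1 library left out.

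Members that were not called changed sign as follows, in log2. Slc38a4 became 0.01 with limma-voom, 0.027 with TPM + 0.1, 0.536 with the hepatocyte covariate and 0.498 without Controls 2 and 4. Slc38a3 became 0.291 with the hepatocyte covariate and 0.07 without Controls 2 and 4, and Slc7a2 0.455 and 0.167. Slc36a1 became 0.008 with library size alone, and 0.053 and 0.059 with limma on TPM + 1 and + 0.1. Slc43a2 became 0.017 with both, Slc6a9 0.16 and 0.281 (and 0.068 without Controls 2 and 4) and Slc38a1 0.004 with TPM + 0.1. Slc7a11 became 0.038 with library size alone, 0.041 and 0.108 with limma on TPM and 0.281 with the hepatocyte covariate. With 1 library left out, values ran from -0.284 to 0.082 for Slc38a4, -0.077 to 0.008 for Slc36a1, -0.368 to 0.001 for Slc6a9, -0.255 to 0.009 for Slc38a1, -0.667 to 0.227 for Slc7a11, -0.047 to 0.081 for Slc38a6 and -0.001 to 0.092 for Slc38a7.

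The replicate numbers in the titles showed no clear pairing of the samples. The correlations of same-numbered libraries were -0.20, 0.35, 0.01, 0.11 and 0.28, and 3 of 10 libraries correlated best with their own number. So few libraries cannot show whether the numbers pair the samples. With the replicate block 7 members and 2567 genes were called, and Slc3a2 (-0.32, adjusted p = 0.065), Slc6a6 (-0.26, 0.063) and Slc7a4 (0.89, 0.079) were no longer called.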

Other observations

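For some members the deposited TPM and the counts gave different ratios between the groups, which happens when the estimates are spread over transcripts of differing length. The mean length implied for Slc7a6 in knockout-labelled libraries was 0.786 of that in controls, so that its TPM went from 2.43 to 3.56 while its CPM went from 4.15 to 4.65. For Slc1a2 the implied length was 0.703 of that in controls, and its mean TPM was 3.54 in controls and 0.856 in knockout-labelled libraries. Which transcripts of these genes were present was not analysed here.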
